A study of Mus musculus with 8 samples.

Results

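Fgf receptors and genes that respond to Fgf signalling were followed in mouse embryos of wild-type and Gcnf-/- genotype. The set was a list of 10 gene symbols, looked up among 55421 Ensembl identifiers in the table. It held the receptor genes Fgfr1, Fgfr2 and Fgfr3, the transcription factor genes Etv4 and Etv5, and the feedback inhibitor genes Spry1, Spry2, Spry4, Dusp6 and Il17rd. Each of the 10 matched 1 identifier, and all 10 were among the 16699 genes tested, with at least 1 TPM in 8 of 8 libraries.

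Fgf ligands are secreted proteins that bind receptor tyrosine kinases together with heparan sulphate, and the activated receptors signal largely through Ras and the kinase ERK. ERK activity switches on Etv4 and Etv5 and also the genes of inhibitors that act back on the route, so the transcripts of these genes are widely used as a readout of Fgf signalling. In the embryonic head Fgf8 and its relatives are made at the midbrain-hindbrain boundary, the anterior neural ridge and the pharyngeal ectoderm and endoderm, and in the trunk they are made in the tail bud.

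Poly-A RNA was sequenced from embryos at E9.25 (9 to 11 somites), wild type or Gcnf-/-, cut into an anterior piece that ended with the first pharyngeal arch and a posterior piece that began with the second. Gcnf, germ cell nuclear factor, is the orphan nuclear receptor encoded by Nr6a1. The 4 groups were wild-type anterior, wild-type posterior, mutant anterior and mutant posterior, with 2 libraries each, numbered 153 and 156 in wild type and 159 and 163 in the mutant. The labels name no treatment in any group. They also do not name the strain, the structure of the allele or whether a library held 1 embryo or a pool. Separate embryos for the 2 libraries of a group are likewise unstated, so p-values rest on the spread between these libraries, which in wild type may be technical.

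Values are TPM, transcript abundances scaled to the same total in each library and corrected for gene length by the authors, so levels of different genes may be compared. Depth ranged from 27064113 to 52957993 reads in genes per library, and the 10 genes were covered by between 262 and 11966 reads per library. Nr6a1 was at 194 to 240 TPM in the anterior and 116 to 165 TPM in the posterior libraries of both genotypes, and a value for the whole gene does not check the genotype labels. Marker genes separated the regions as labelled: 6 forebrain and midbrain markers together held 269 to 315 TPM in the anterior and 9.71 to 12.5 TPM in the posterior libraries, and 7 trunk and tail markers 10.6 to 14.0 and 644 to 1100 TPM. Both mutant libraries numbered 159 had Xist (25.3 and 30.9 TPM), while the other 6 had Ddx3y of the Y chromosome (26.2 to 39.4 TPM), so sex was unequal between the genotypes and differed between the 2 mutant libraries of each region. Heart markers were uneven within groups, at 3370 and 389 TPM in mutant posterior libraries 159 and 163 and at 131 and 30.9 TPM in wild-type anterior libraries 153 and 156.

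**Figure D1:**
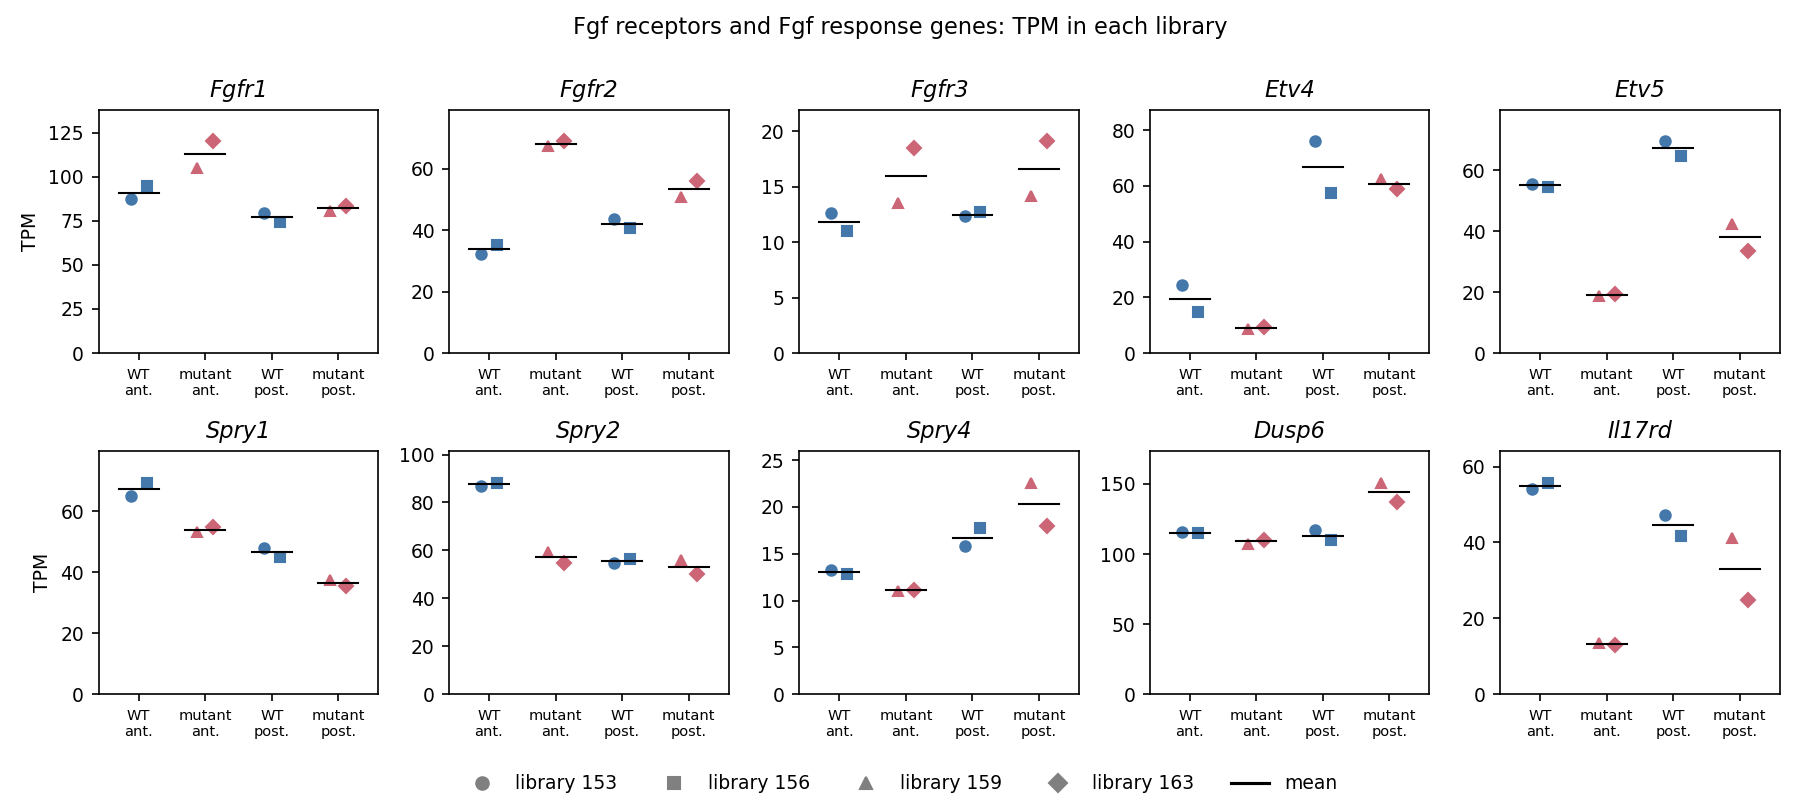
TPM of the 10 genes (vertical axes, from 0) in the 4 groups, with 1 point per library, a marker shape for each library number, and a line at the mean of 2 libraries. Etv5 and Il17rd of the mutant anterior libraries (18.7 and 19.4, 13.5 and 13.0 TPM) lie below all other libraries, and Fgfr2 (67.5 and 68.9 TPM) lies above them.

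The receptors differed in level. Fgfr1 (ENSMUSG00000031565; mm10 chromosome 8, 25513654 to 25575718, plus strand), the main receptor of mesoderm and neural tissue in the early embryo, was the highest in every library. It stood at 87.3 and 94.5 TPM in the wild-type anterior libraries, 105 and 120 in the mutant anterior, 79.7 and 74.6 in the wild-type posterior and 80.6 and 83.5 in the mutant posterior libraries. The 4 groups did not overlap, but the steps between them were small.

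Fgfr2 (ENSMUSG00000030849; chromosome 7, minus strand), whose splice forms are divided between epithelium and mesenchyme, had the widest range of the 3 listed receptor genes on the log2 scale (group means spanning 0.99, against 0.54 for Fgfr1 and 0.45 for Fgfr3). Its TPM was 32.4 and 35.3 in the wild-type anterior libraries, 67.5 and 68.9 in the mutant anterior, 43.7 and 40.6 in the wild-type posterior and 50.7 and 56.0 in the mutant posterior libraries. The mutant anterior pieces were thus the highest and the wild-type anterior pieces the lowest, again with no overlap between neighbouring groups. The annotated gene runs from 130162451 to 133123350 because of a distant start site, and its TPM was divided by an exon length of 10328 bases that includes every annotated exon, so its level against the other receptors depends on that model.

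Fgfr3 (ENSMUSG00000054252; chromosome 5, 33721674 to 33737068, plus strand) was lower, between 11.0 and 19.1 TPM. In the mutant, library 163 (18.5 anterior, 19.1 posterior) stood above library 159 (13.5 and 14.2) in both pieces, and the wild-type libraries lay between 11.0 and 12.7. Fgfr4, which is not one of the 10 genes, was at 0.354 to 0.696 TPM in the anterior and 7.35 to 12.3 TPM in the posterior libraries.

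Added up, the 4 receptor genes came to 137 ± 5.8 TPM in the wild-type anterior, 198 ± 15 in the mutant anterior, 144 ± 5.2 in the wild-type posterior and 161 ± 12 in the mutant posterior pieces (mean ± SD, n = 2 libraries, here and below). Fgfr1 made up 66.3% ± 0.89 of that sum in the wild-type anterior and 57.0% ± 0.99 in the mutant anterior pieces, and Fgfr2 24.7% ± 0.43 and 34.6% ± 2.2. In the posterior pieces the shares of Fgfr1 were 53.6% ± 0.58 in wild type and 51.0% ± 2.4 in the mutant, and those of Fgfr2 29.3% ± 0.46 and 33.1% ± 0.062. The ratio of Fgfr1 to Fgfr2 was 2.69 and 2.68 in the wild-type anterior libraries and between 1.49 and 1.84 in the other 6.

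**Figure D2:**
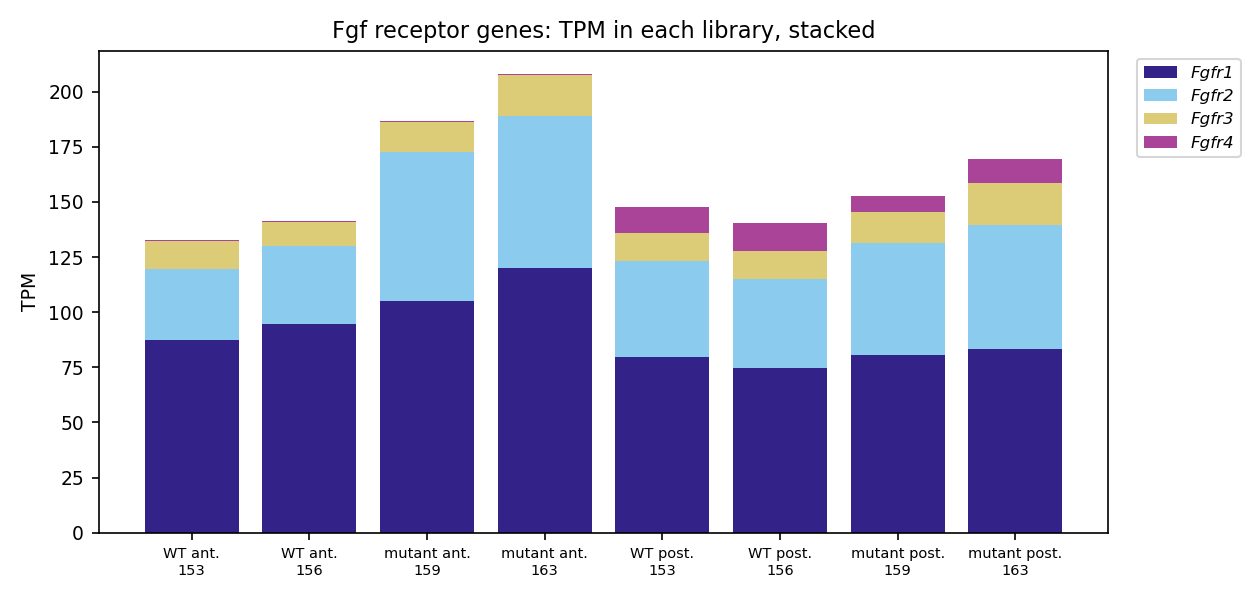
TPM of Fgfr1, Fgfr2, Fgfr3 and Fgfr4 stacked for each of the 8 libraries (vertical axis from 0). The mutant anterior bars are the tallest, at 187 and 209 TPM in all against 133 and 141 in the wild-type anterior libraries, and Fgfr4 is a thin line in the anterior bars and a visible block in the posterior ones.

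Among the response genes, Etv5 (ENSMUSG00000013089; chromosome 16, 22381309 to 22439719, minus strand) and Il17rd (ENSMUSG00000040717; chromosome 14, 27038941 to 27107286, plus strand) had similar profiles. Etv5, an ETS factor of the PEA3 group, was at 55.5 and 54.5 TPM in the wild-type anterior libraries, 18.7 and 19.4 in the mutant anterior, 69.4 and 64.7 in the wild-type posterior and 42.4 and 33.4 in the mutant posterior libraries. Il17rd, also called Sef, a membrane protein that dampens signalling by Fgf receptors, was at 54.0 and 55.8, 13.5 and 13.0, 47.3 and 41.7, and 41.2 and 24.7 TPM in the same order. For both genes the mutant anterior pieces were the lowest of the 4 groups, without overlap. The mutant posterior libraries lay apart for Il17rd, with library 159 close to the lower wild-type library.

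Etv4 (ENSMUSG00000017724; chromosome 11, 101769742 to 101785371, minus strand), the other PEA3 factor of the list, differed more between the regions than between the genotypes. It was at 24.5 and 14.6 TPM in the wild-type anterior and 8.49 and 9.49 in the mutant anterior libraries, against 75.9 and 57.4 in the wild-type posterior and 62.6 and 59.0 in the mutant posterior libraries. The posterior groups overlapped each other, and libraries 153 and 156 of the wild-type anterior pieces lay farther apart than the mutant ones did. The ratio of Etv5 to Etv4 lay between 2.05 and 3.74 in the anterior and between 0.565 and 1.13 in the posterior libraries.

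The Sprouty genes encode intracellular inhibitors of the route from receptor tyrosine kinases to ERK. Spry2 (chromosome 14, 105891947 to 105896819, minus strand) was at 87.0 and 88.3 TPM in the wild-type anterior libraries and between 50.1 and 59.4 TPM in the other 6. Spry1 (chromosome 3, 37639947 to 37644598, plus strand) stepped down from 65.1 and 69.4 TPM in the wild-type anterior to 53.1 and 54.7 in the mutant anterior, 47.8 and 45.1 in the wild-type posterior and 37.4 and 35.5 in the mutant posterior libraries. Those 4 groups of Spry1 did not overlap, whereas Spry2 did not separate the 3 lower groups. Spry4 (chromosome 18, 38586247 to 38601415, minus strand) was the lowest of the 3, at 13.3 and 12.8, 11.0 and 11.1, 15.8 and 17.7, and 22.6 and 18.0 TPM in wild-type anterior, mutant anterior, wild-type posterior and mutant posterior libraries.

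Dusp6 (ENSMUSG00000019960; chromosome 10, 99263231 to 99267489, plus strand), a phosphatase that removes the activating phosphates from ERK, was the most even of the response genes. It lay between 107 and 117 TPM in the wild-type libraries of both regions and the mutant anterior libraries, and at 151 and 137 TPM in the mutant posterior libraries. The ratio of Dusp6 to Etv5 within a library was 2.08 and 2.11 in the wild-type anterior and 5.72 and 5.66 in the mutant anterior libraries, 1.68 and 1.70 in the wild-type posterior and 3.55 and 4.12 in the mutant posterior libraries. The 2 genes thus kept no fixed ratio across the groups.

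The promoters of 4 of these genes are shown because 2 of them (Etv5 and Il17rd) had the largest falls of the list in the mutant anterior pieces, Fgfr2 the largest rise, and Dusp6 no call there. The sequences are from RefSeq (GRCm38.p6, the same build as mm10), 250 bases before to 50 bases after a start site, 5′ to 3′ on the gene's strand. Capitals mark AGGAAG, the motif after which the PEA3 factors are named, or its reverse complement CTTCCT.
Etv5, chr16:22438319-22438618, minus strand: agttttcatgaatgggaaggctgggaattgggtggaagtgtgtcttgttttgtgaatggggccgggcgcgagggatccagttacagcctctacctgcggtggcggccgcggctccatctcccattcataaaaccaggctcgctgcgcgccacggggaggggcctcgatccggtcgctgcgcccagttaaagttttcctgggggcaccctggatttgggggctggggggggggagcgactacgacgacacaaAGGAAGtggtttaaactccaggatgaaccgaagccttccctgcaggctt
Il17rd, chr14:27038751-27039050, plus strand: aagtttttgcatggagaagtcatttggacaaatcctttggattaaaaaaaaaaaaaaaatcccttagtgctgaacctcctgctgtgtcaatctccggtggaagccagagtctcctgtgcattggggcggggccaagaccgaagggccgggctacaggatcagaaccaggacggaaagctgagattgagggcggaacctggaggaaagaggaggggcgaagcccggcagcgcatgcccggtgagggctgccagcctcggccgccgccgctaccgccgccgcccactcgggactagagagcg
Fgfr2, chr7:130266759-130267058, minus strand: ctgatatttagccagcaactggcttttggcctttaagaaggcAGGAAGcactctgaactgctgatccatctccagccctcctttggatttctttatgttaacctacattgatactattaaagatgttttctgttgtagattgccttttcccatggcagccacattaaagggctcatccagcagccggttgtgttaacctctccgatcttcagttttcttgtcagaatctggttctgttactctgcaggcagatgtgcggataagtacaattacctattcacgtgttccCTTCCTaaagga
Dusp6, chr10:99262981-99263280, plus strand: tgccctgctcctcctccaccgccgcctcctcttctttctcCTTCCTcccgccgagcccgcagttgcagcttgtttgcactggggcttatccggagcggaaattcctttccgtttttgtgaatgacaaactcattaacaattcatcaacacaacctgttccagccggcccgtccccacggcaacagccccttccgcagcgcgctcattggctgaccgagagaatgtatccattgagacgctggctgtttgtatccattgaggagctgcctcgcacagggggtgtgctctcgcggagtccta
The motif search covered windows of 7 of the 10 genes, 9 windows in all, including an upstream one of Etv5 that is not printed. The other members were not part of it, so the counts below do not speak for the whole list. On either strand AGGAAG was present in the windows of 3 of these 7 genes (Etv5, Fgfr2 and Dusp6), against 38.4% of all 27025 genes with a window, and another ETS motif, CCGGAA, in that of 1 (Spry2), against 16.7%. For Etv5 the match was in the printed window, and the upstream window held neither motif. No match of the 2 motifs overlapped another. The extended half-site TCAAGGTCA, which Gcnf is known to bind, was in 0 of the 9 windows and in 0.423% of all 32851. A match describes letters only, and a lack of one says only that these letters were not in these windows.

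The anterior comparison asked which of the 10 genes changed with the genotype in the head piece. In the mutant 5 of the 7 response genes fell and 1 of the 3 receptor genes rose. Il17rd fell the most, from 54.9 ± 1.3 to 13.3 ± 0.31 TPM, 4.14-fold, followed by Etv5, from 55.0 ± 0.75 to 19.1 ± 0.49 TPM, 2.88-fold, and Etv4, from 19.5 ± 7 to 8.99 ± 0.71 TPM, 2.17-fold. Fgfr2 rose 2.01-fold, from 33.9 ± 2 to 68.2 ± 0.99 TPM. Dusp6 and Spry4 did not pass.

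Of the 16699 genes tested, 23.6% were called in the anterior comparison at a Benjamini-Hochberg adjusted p under 0.05 (13.3% higher and 10.2% lower in the mutant), against 6 of the 10 (1 higher and 5 lower). Higher genes made up 56.6% of all calls on the deposited values and 47.3% after quantile normalization. The median difference of log2(TPM + 1), which understates changes of low genes, was -0.27 over the 10 genes and 0.02 over all genes tested. The differences of log2(TPM + 1) were -1.97 ± 0.20 (SE) for Il17rd (adjusted p = 0.00042), -1.48 ± 0.12 for Etv5 (adjusted p = 0.00017) and -1.0 ± 0.22 for Etv4 (adjusted p = 0.013). Among the Sprouty genes Spry2 fell by 0.61 ± 0.096 (adjusted p = 0.0031) and Spry1 by 0.31 ± 0.091 (adjusted p = 0.038). The rise of Fgfr2 was 0.99 ± 0.099 (adjusted p = 0.00041).

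For the genes that did not pass, the 95% confidence interval of the anterior difference ran from -0.29 to 0.12 for Dusp6, from -0.52 to 0.08 for Spry4, from 0.08 to 0.54 for Fgfr1 (adjusted p = 0.055) and from -0.01 to 0.80 for Fgfr3. The interval of Dusp6 holds no value as large as the estimate of any called gene, while a difference of Spry4 as large as that of Spry1 lies within its interval. The calls of Il17rd, Etv5, Spry2 and Fgfr2 were kept under all 20 other settings, and Fgfr1 passed under 7 of them. The call of Etv4 was lost without wild-type anterior library 153, which also moved its difference to -0.64 (adjusted p = 0.065), without mutant anterior library 159 (adjusted p = 0.062) and without a filter on low values (adjusted p = 0.059), and that of Spry1 was lost without any 1 of the 4 anterior libraries (adjusted p = 0.11 to 0.25), without both libraries numbered 159 (0.11) and with voom on recovered reads (0.055).

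**Figure D3:**
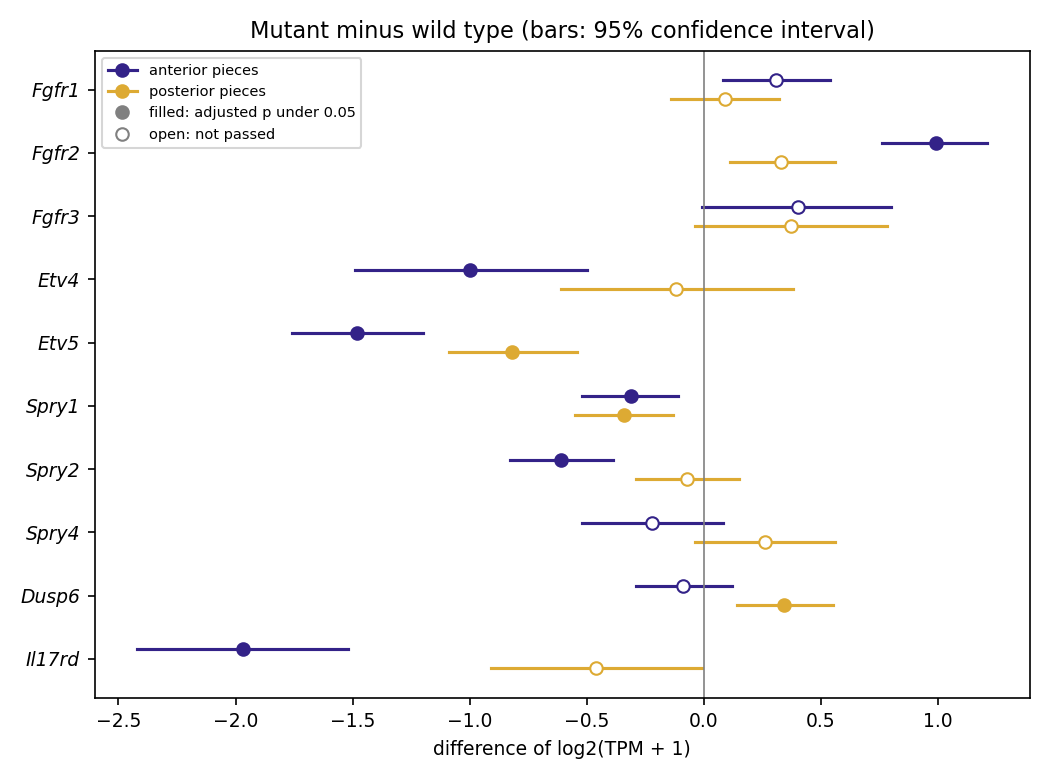
Difference of log2(TPM + 1), mutant minus wild type, for each of the 10 genes in the anterior and posterior pieces, with 95% confidence intervals from the fit over all genes, filled where the adjusted p was under 0.05. In the anterior pieces 5 genes are filled to the left of 0 and Fgfr2 to the right, and in the posterior pieces Etv5 and Spry1 are filled to the left and Dusp6 to the right.

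Beside these changes, markers of several cell types moved with the genotype in the anterior pieces. The summed level of 6 markers of the midbrain-hindbrain boundary, where Fgf8 and Fgf17 are made, was 208 and 247 TPM in wild-type and 48.8 and 64.5 TPM in mutant libraries. Of the 6, 5 fell (En1, En2, Pax2, Pax5 and Pax8). Pax8 passed the filter on low values only through wild-type libraries. En2 needed wild-type libraries too, with 1.39 TPM in mutant anterior library 163 and 0.938 TPM or less in the other mutant libraries. The calls of En2 and Pax8 thus follow in part from the filter. Of 5 neural crest markers 4 fell (sums of 240 to 259 and of 144 to 146 TPM), all 7 early neuron markers rose (128 to 132 and 386 to 553 TPM), and all 5 primitive erythroid markers rose (4200 to 9840 and 25300 to 43600 TPM). Of the neuron markers Neurod1, Neurod4 and Dcx passed the filter only through mutant libraries, so their calls follow in part from it, and the other 4 (Elavl3, Elavl4, Isl1 and Tubb3) did not depend on it. Their part in the changes of the 10 genes was not tested, and in such pieces fewer cells of a type and less RNA per cell cannot be told apart.

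The posterior comparison asked the same of the trunk piece. Etv5 and Spry1 fell and Dusp6 rose, and the other 7 genes did not pass. Etv5 went from 67.1 ± 3.3 to 37.9 ± 6.4 TPM, 1.77-fold lower, Spry1 from 46.5 ± 1.9 to 36.5 ± 1.3, 1.27-fold lower, and Dusp6 from 113 ± 4.9 to 144 ± 9.4 TPM, 1.27-fold higher. Etv4, at 66.6 ± 13 and 60.8 ± 2.5 TPM, and Spry2, at 55.6 ± 1.3 and 53.1 ± 4.3 TPM, had overlapping libraries.

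Over all genes 11.5% were called in the posterior comparison (8.56% higher and 2.93% lower), against 3 of the 10 (1 higher and 2 lower). The split over all genes depends on scaling: 74.5% of called genes were higher on the deposited values, 55.2% after median-of-ratios scaling and 53.9% after quantile normalization. The median difference was 0.01 over the 10 genes and 0.05 over all genes tested. The differences of log2(TPM + 1) were -0.82 ± 0.12 for Etv5 (adjusted p = 0.0046), -0.34 ± 0.091 for Spry1 (adjusted p = 0.0456) and 0.34 ± 0.089 for Dusp6 (adjusted p = 0.042).

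The 95% confidence intervals of genes that did not pass were -0.61 to 0.38 for Etv4, -0.29 to 0.15 for Spry2, -0.04 to 0.56 for Spry4, -0.91 to -0.01 for Il17rd, -0.14 to 0.32 for Fgfr1, 0.11 to 0.56 for Fgfr2 and -0.04 to 0.78 for Fgfr3. Fgfr2 (adjusted p = 0.064) passed under 3 of 20 other settings. Il17rd, at -0.46 ± 0.20 (adjusted p = 0.17), turned on the mutant posterior libraries: its difference was -0.82 (adjusted p = 0.0072) without library 159 and -0.10 (adjusted p = 0.65) without library 163. Etv5 lost its call without wild-type posterior library 153 (adjusted p = 0.06), Spry1 without any 1 of the 8 libraries (adjusted p = 0.062 to 0.19), and Dusp6 without any 1 of them other than mutant posterior library 163 (adjusted p = 0.057 to 0.14).

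In the posterior pieces 3 of 5 neural crest markers fell (sums of 84.6 to 92.0 TPM in wild type and 45.7 to 47.4 in the mutant), 6 of 7 early neuron markers rose (50.0 to 53.8 and 101 to 107 TPM, with Neurod1 and Neurod4 again tested only through mutant libraries) and 4 of 5 primitive erythroid markers rose (6300 to 7540 and 22000 to 43800 TPM). Of the 7 trunk and tail markers 2 fell, Hoxb9 and Hoxc8, and T rose. The 5 visceral endoderm markers summed to 1170 and 904 TPM in wild-type and to 95.7 and 361 TPM in mutant libraries. Of these 5, 2 were called lower (Apoa4 and Fga). The part of all these markers in the posterior changes was not tested either.

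Sex and library number could be followed through 1 alternative, chosen after the data were seen, that left out both libraries numbered 159. Fgfr3 then passed in both pieces, with differences of 0.61 (adjusted p = 0.021) in the anterior and 0.57 (adjusted p = 0.043) in the posterior pieces, against 0.40 ± 0.18 and 0.37 ± 0.18 with all libraries. Il17rd passed in the posterior pieces (-0.82, adjusted p = 0.0079), and Dusp6 and Spry1 no longer passed there (adjusted p = 0.12 and 0.071). The mutant arms then held 1 library each, which was assumed to vary like the wild-type groups, so that sex and the choice of library cannot be told apart. All 6 remaining libraries had Ddx3y.

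Whether the genotype effects differed between the pieces was tested as a difference of differences (anterior minus posterior). Over all genes 1.01% were called (0.413% higher and 0.599% lower), and 1 of the 10 was, Il17rd, at -1.51 ± 0.28 (adjusted p = 0.0497). The median difference was -0.45 over the 10 genes and -0.04 over all genes tested. The fall of Il17rd in the mutant was thus larger in the anterior than in the posterior pieces, by a margin that sat on the threshold: it was kept under 6 of 19 other settings. It was lost without any 1 anterior library (adjusted p = 0.12 to 0.13) or wild-type posterior library (0.2 and 0.23), with no filter (0.19), with smaller pseudocounts (0.057 and 0.051), under either other scaling (0.078), with globin and mitochondrial genes removed (0.072) and with the library number as a block (0.058).

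For the other 9 genes a difference between the pieces was not shown. The values were -0.88 ± 0.31 for Etv4 (adjusted p = 0.28), -0.66 ± 0.17 for Etv5 (adjusted p = 0.14), -0.54 ± 0.14 for Spry2 (adjusted p = 0.12) and 0.66 ± 0.14 for Fgfr2 (adjusted p = 0.077). Fgfr2 passed under 4 of 19 other settings, among them median-of-ratios scaling (0.71, adjusted p = 0.047) and quantile normalization (0.69, adjusted p = 0.0486). The value of Etv5 was -0.83 without mutant posterior library 163. Spry1 had almost the same difference in both pieces, and the interval of its difference of differences ran from -0.27 to 0.32. That of Dusp6 ran from -0.71 to -0.14 (adjusted p = 0.18).

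The ligand genes encode the signals that the receptors bind. Of 18 Fgf ligand genes 11 were tested and 7 stayed under the filter (Fgf1, Fgf6, Fgf7, Fgf20, Fgf21, Fgf22 and Fgf23). In the anterior pieces Fgf8, the main ligand of the midbrain-hindbrain boundary and the anterior neural ridge, fell from 60.0 ± 6.6 to 25.8 ± 7.4 TPM (-1.21 ± 0.18, adjusted p = 0.0023), its relative Fgf17 fell from 38.3 ± 2.3 to 5.45 ± 0.55 TPM, and Fgf15, the mouse counterpart of FGF19, rose from 38.3 ± 0.94 to 56.6 ± 4.6 TPM (0.55 ± 0.13, adjusted p = 0.019). The other 8 did not pass, Fgf18 at 16.6 ± 4.4 and 10.2 ± 2.8 TPM (adjusted p = 0.088) and Fgf3 at 13.8 ± 1 and 10.9 ± 1.1 TPM (adjusted p = 0.080) among them. The anterior comparison called 23.6% of all genes. The ratio of Fgf17 to Fgf8 within a library was 0.661 and 0.618 in wild type and 0.246 and 0.188 in the mutant, lower in both mutant libraries than in both wild-type ones. Fgf8 and Fgf17 kept their calls under all 20 other settings, and Fgf15 lost its call without mutant anterior library 163, wild-type anterior library 153 or 156, or the filter (adjusted p up to 0.11).

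In the posterior pieces 4 of the 11 tested ligand genes were called, beside 11.5% of all genes. Fgf15 rose from 26.2 ± 1.4 to 95.8 ± 18 TPM, 3.66-fold (1.82 ± 0.13, adjusted p = 0.0002), and Fgf4, a ligand of the primitive streak and tail bud, rose from 3.87 ± 0.059 to 11.5 ± 2.4 TPM (1.35 ± 0.25, adjusted p = 0.012). Fgf3 fell from 31.1 ± 0.5 to 22.4 ± 0.16 TPM (adjusted p = 0.035) and Fgf10 from 14.9 ± 3 to 9.32 ± 0.91 TPM (adjusted p = 0.0483). Fgf8, at 51.2 ± 5.3 and 59.8 ± 1.8 TPM, and Fgf17, at 57.6 ± 8.6 and 50.0 ± 5.6 TPM, did not pass there. The difference between the pieces, called for 1.01% of all genes, passed for Fgf17 (-2.41 ± 0.19, adjusted p = 0.0022), Fgf15 (-1.27 ± 0.19, adjusted p = 0.022) and Fgf8 (-1.43 ± 0.25, adjusted p = 0.039). The rise of Fgf15 was kept under 20 of 20 other settings, that of Fgf4 under 15, and the falls of Fgf3 and Fgf10 under 10 and 6. The difference between the pieces was kept under 19 of 19 for Fgf17, 12 for Fgf15 and 9 for Fgf8 (adjusted p up to 0.21).

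**Figure D4:**
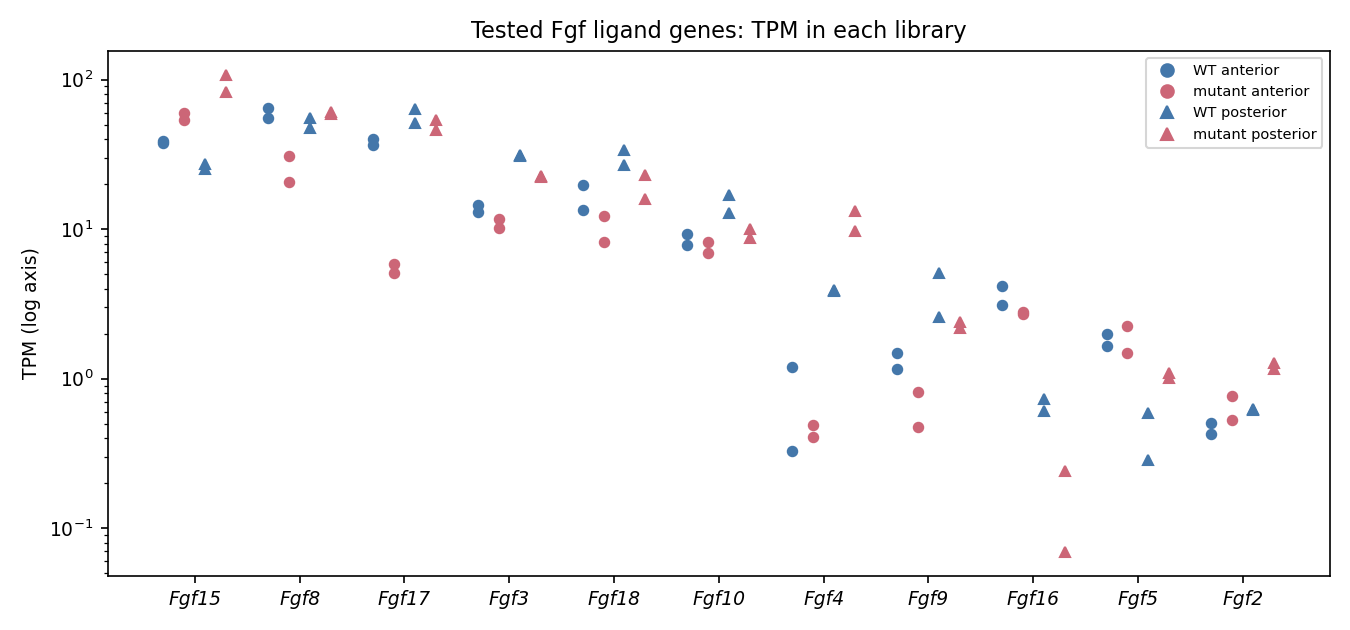
TPM (log axis) of the 11 tested Fgf ligand genes in each library, ordered by their mean, with circles for anterior and triangles for posterior libraries, wild type in blue and mutant in red. Fgf8 and Fgf17 of the mutant anterior libraries lie below those of the other 3 groups, and Fgf15 of the mutant posterior libraries lies above them.

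A list of 14 further response and feedback genes was set beside the 10. Of its 13 tested genes, 8 fell and 1 rose in the mutant anterior pieces, with a median of -0.48 against 0.02 over all genes. Of all genes tested, 10.2% were called lower and 13.3% higher there. Flrt1, a membrane protein of the family that binds Fgf receptors, went from 10.8 ± 0.04 to 1.42 ± 0.18 TPM (-2.30 ± 0.17, adjusted p = 0.0001), the ERK phosphatase gene Dusp5 from 68.5 ± 0.87 to 37.6 ± 4.1 TPM (adjusted p = 0.0027), and Spred3 and Spred1, relatives of the Sprouty genes, from 18.9 ± 0.51 to 11.1 ± 0.3 TPM (adjusted p = 0.0057) and from 129 ± 6.1 to 90.9 ± 6.6 TPM (adjusted p = 0.013). Egr1, an immediate-early factor that ERK induces, was the one that rose, from 2.26 ± 0.53 to 5.46 ± 2.4 TPM (adjusted p = 0.039). In the posterior pieces 2 fell, Dusp4 from 207 ± 5.6 to 138 ± 17 TPM (adjusted p = 0.0091) and Spred3 from 10.2 ± 0.79 to 6.33 ± 0.93 TPM (adjusted p = 0.020), and Egr1 rose (adjusted p = 0.0464), with a median of 0.04 against 0.05. The posterior comparison called 2.93% of all genes lower and 8.56% higher. Flrt1 and Dusp5 kept their anterior calls under all 20 other settings, Spred3 under 19, Spred1 under 17 and Egr1 under 12, and the posterior calls of Dusp4, Spred3 and Egr1 were kept under 18, 15 and 9.

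Of the other receptor genes, the decoy receptor gene Fgfrl1, which lacks a kinase domain, fell in the mutant anterior pieces from 44.5 ± 1.3 to 31.8 ± 4.7 TPM (adjusted p = 0.018, kept under 16 of 20 other settings) and did not pass in the posterior pieces (72.3 ± 2.9 and 63.4 ± 3.2 TPM). Fgfr4 and the co-receptor gene Klb did not pass in either piece, and Kl stayed under the filter.

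Posterior and anterior pieces were compared within each genotype, to ask where along the body the genes were high. In wild type Etv4 rose 3.42-fold towards the posterior piece (1.75 ± 0.22, adjusted p = 0.00094), and Spry2 and Spry1 fell (-0.65 ± 0.096, adjusted p = 0.0024, and -0.52 ± 0.091, adjusted p = 0.0054). The other 7 genes did not pass in wild type. In the mutant Etv4 was 6.77-fold higher in the posterior piece (2.63 ± 0.22, adjusted p = 7.6e-05), Il17rd 2.49-fold (1.21 ± 0.20, adjusted p = 0.0036), Etv5 1.99-fold (0.94 ± 0.12, adjusted p = 0.00095), Spry4 1.84-fold (0.81 ± 0.13, adjusted p = 0.0032) and Dusp6 1.33-fold (0.40 ± 0.089, adjusted p = 0.015). Spry1, Fgfr1 and Fgfr2 fell towards the posterior piece of the mutant (-0.55 ± 0.091, adjusted p = 0.0037, -0.45 ± 0.10, adjusted p = 0.015, and -0.35 ± 0.099, adjusted p = 0.044).

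The wild-type region comparison called 14.5% of all genes (7.86% higher and 6.65% lower), against 3 of the 10 (1 higher and 2 lower), and the mutant one called 16.1% (8.01% higher and 8.1% lower), against 8 of the 10 (5 higher and 3 lower). The medians over the 10 genes were 0.03 in wild type and 0.23 in the mutant, against -0.10 and -0.04 over all genes. That a gene passed in the mutant and not in wild type does not show a different region effect: the test of that difference is the difference of differences above, which Il17rd alone of the 10 passed, and these comparisons share libraries with those of the genotypes. Fgfr2 lost its call in the mutant under 13 of 20 other settings, including the leaving out of any 1 library (adjusted p = 0.0522 to 0.16). Dusp6 lost its call without mutant anterior library 159 or 163 or mutant posterior library 159 (adjusted p = 0.057 to 0.08) or both libraries numbered 159 (0.13), Fgfr1 without mutant anterior library 163 (0.10), and both also when the mutant libraries were fitted alone (0.072 and 0.06), and Spry1 lost its call in wild type without wild-type anterior library 156 (0.079).

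**Figure D5:**
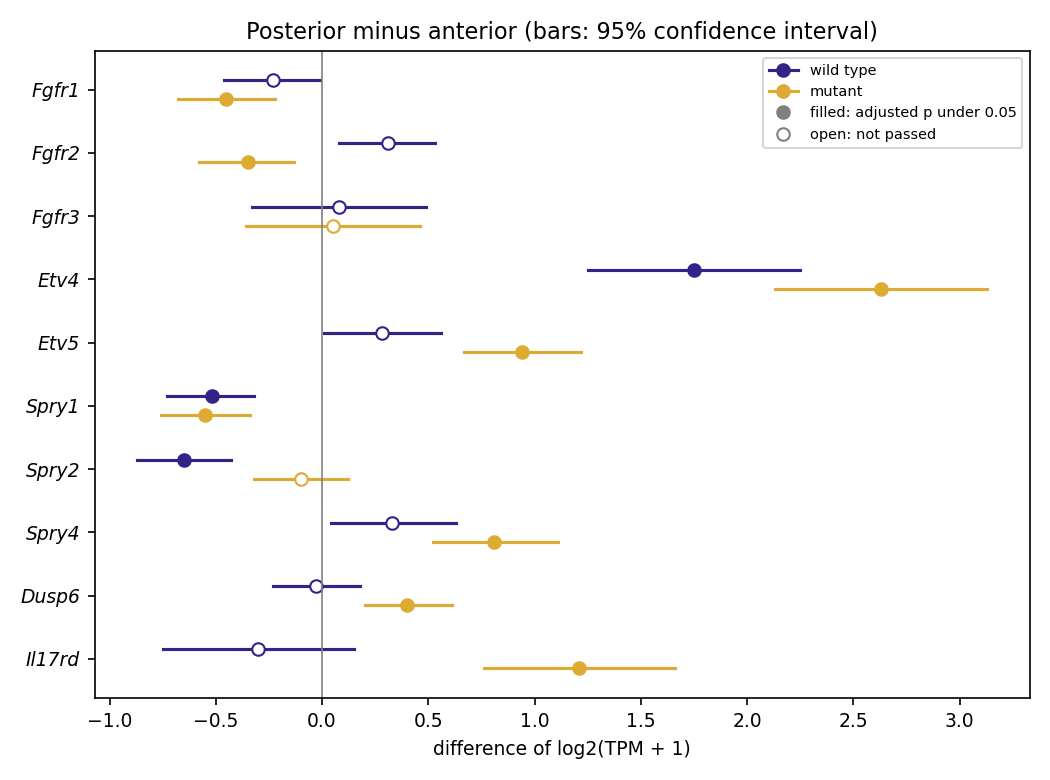
Difference of log2(TPM + 1), posterior minus anterior, for each of the 10 genes in wild type and in the mutant, with 95% confidence intervals from the fit over all genes, filled where the adjusted p was under 0.05. Etv4 lies farthest to the right in both genotypes (1.75 and 2.63), and Il17rd lies on opposite sides of 0 (-0.30 in wild type, not passed, and 1.21 in the mutant).

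Ligand genes followed the region too. Of the 11 tested, 6 rose and 3 fell towards the posterior piece in wild type, and 7 rose and 1 fell in the mutant. Over all genes these comparisons called 14.5% and 16.1%. Fgf3 rose from 13.8 ± 1 to 31.1 ± 0.5 TPM in wild type (1.12 ± 0.11, adjusted p = 0.00027), while Fgf8 did not pass in wild type (60.0 ± 6.6 and 51.2 ± 5.3 TPM, adjusted p = 0.44) and in the mutant rose 2.32-fold, from 25.8 ± 7.4 to 59.8 ± 1.8 TPM (1.21 ± 0.18, adjusted p = 0.002). All 3 other receptor genes tested were higher in the posterior pieces of both genotypes: Fgfr4 went from 0.493 ± 0.2 to 12.1 ± 0.41 TPM, Klb from 0.187 ± 0.2 to 6.29 ± 0.88 and Fgfrl1 from 44.5 ± 1.3 to 72.3 ± 2.9 TPM in wild type. Fgfr4, Klb and Fgf4 needed their posterior libraries to pass the filter on low values, and Fgf16 its anterior ones, so their region calls follow in part from the filter.

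The genes nearest in profile were sought for the 3 members whose group means spanned at least 1 on the log2(TPM + 1) scale, by the root mean square difference of gene-centred log2(TPM + 1) values over the 8 libraries, among 11735 other genes. Those compared had a mean of at least 2 TPM, and predicted genes and genes of the sex chromosomes were left out. Il17rd and Etv5 lay 0.25 apart, and Etv5 was the nearest of the compared genes to Il17rd. The nearest to Etv5 were Fut4 (0.17), a fucosyltransferase gene with group means of 17.4, 5.53, 22.7 and 14.1 TPM in wild-type anterior, mutant anterior, wild-type posterior and mutant posterior pieces, and Olfml3 (0.21), which encodes a secreted protein. Fut4 was also the second nearest to Il17rd (0.33). The nearest to Etv4 was Arhgap24 (0.21), with means of 3.13, 1.83, 15.3 and 14.1 TPM in the same order, while the nearest member, Etv5, was 0.87 away. All values come from the same 8 libraries, which fall into 4 groups, so the measure describes these profiles only.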

How the data were processed

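RNA from 8 libraries (4 groups of 2) was measured. The submitters' processing notes name CASAVA 1.8.2, STAR and the build mm10. A version of STAR, an annotation and a counter are not given there. The values, in TPM, were deposited by the authors as 1 table of the whole series. Per the labels' protocols the libraries do not mark strand, so reads of a gene and of an overlapping antisense gene cannot be told apart. Names, positions and exon lengths came from GENCODE M21 (mm10), which named 55240 identifiers. Multiplying TPM by exon length returned whole read numbers for 98.8% to 98.89% of values above 0 (tolerance 0.01 read), and the read numbers in the text come from this. Such reads are not independent molecules, so depth covers counting error only.

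Genes with at least 1 TPM in at least 2 libraries were kept (16699). Values of log2(TPM + 1) were fitted with limma 3.58.1 (R 4.3.3) on 4 group means, with a mean-dependent prior for the variance (residual degrees of freedom 4, prior 4.68). All tests are two-sided. P-values were adjusted by the Benjamini-Hochberg method over all genes of a comparison, with a threshold of 0.05. The fit was also run on simulated reads given the same spread for every gene, which does not cover the uneven spread of these libraries. The text names the 10 genes, up to 4 genes with the smallest p in a comparison from each further list, ligands under the filter, marker genes, and up to 2 genes nearest in profile (1 result is not reported here). Fgf18, Egr1 and Hs6st1 in the anterior comparison, Fgf8 and Fgf17 in the posterior and Fgf8 in the region comparisons were named after their values were seen. Members and lists were chosen with earlier results of these data known. Alternatives were other pseudocounts, filters, scalings, weights and fits, each library left out, and 3 added after the data were seen. Promoters of Fgfr1, Etv4 and Spry4 were not part of the motif search and are not shown. Their absence from the motif counts is not a finding that they lack a window or a motif.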

Additional observations from a re-analysis of the deposited data

Results flagged for a closer look

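Il17rd is listed because its genotype effect differed between the pieces by a test of that difference, at -1.51 (anterior minus posterior, limma, Benjamini-Hochberg adjusted p = 0.0497). The mutant libraries were below the wild-type libraries in both pieces, at 13.5 and 13.0 against 54.0 and 55.8 TPM in the anterior and at 41.2 and 24.7 against 47.3 and 41.7 TPM in the posterior pieces. Over 19 other settings the difference lay between -1.87 and -1.15, with adjusted p-values from 0.0054 to 0.23, and it passed under 6 of them. With the library number as a block the adjusted p was 0.058.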

How the results depend on the processing

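Depth was no limit for the 10 genes, which had at least 262 reads in each library; 2 libraries a group were. Of the 10, the number called was within 1.5 times for the anterior effect under every setting, at 4 to 6 with 1 library left out. For the posterior effect 3 were called, against 1 with no filter, with only the groups of the contrast in the fit or with library weights, and 0 to 2 with 1 library left out (0 without wild-type posterior library 153). For the difference of effects 1 was called, against 0 with a pseudocount of 0.1 or 0.5, with no filter or with the library number as replicate block, 2 with voom on recovered reads, and 0 to 2 with 1 library left out. For the region effects 3 were called in wild type, against 5 with voom and 2 to 3 with 1 library left out, and 8 in the mutant, against 5 with only its groups in the fit and 5 to 7 with 1 library left out. The causes were not tested, other than that a left-out library or group leaves fewer samples.

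Directions of the 10 genes changed only where the gene did not pass. Under quantile normalization the anterior effect of Dusp6 went to 0.03 and the difference of effects of Fgfr3 to -0.01. With 1 library left out the posterior effect of Spry2 ran from -0.15 to 0.01 and that of Etv4 from -0.31 to 0.08, and the difference of effects of Fgfr3 from -0.19 to 0.24 and of Spry1 from -0.02 to 0.07. In wild type the region effect of Dusp6 went to 0.06 under median-of-ratios scaling, 0.09 under quantile normalization, 0.02 with Mir6236, globin and mitochondrial genes removed and 0.05 with voom, and ran from -0.07 to 0.02 with 1 library left out. The region effect of Fgfr3 then ran from -0.0047 to 0.17 in wild type and from -0.16 to 0.27 in the mutant.

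The replicate block gave 3928 calls over all genes for the anterior effect, 1910 for the posterior effect, 115 for their difference (169 without it), and 2404 and 2617 for the region effects. Of the calls among the 10 genes it ended those of Il17rd in the difference (adjusted p = 0.058) and Fgfr2 in the mutant region effect (0.066), and no other. Same-numbered libraries deviated together with r = 0.022 in wild type and 0.136 in the mutant across genes, and the labels do not say that they share an embryo, so they were not treated as pairs. Both libraries numbered 159 had Xist and both numbered 163 had Ddx3y, so a shared source is possible and was not tested. Over all genes the anterior effect had 3937 calls, against 1545 to 4563 with 1 library left out. The posterior effect had 1919, against 954 with no filter, 1102 with library weights and 383 to 1832 with 1 library left out. The difference of effects had 169, against 55 with no filter and 20 to 209 with 1 library left out. The region effects had 2422 and 2690, against 1182 to 2880 and 1732 to 2770 with 1 library left out.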

Other observations

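Further sets of the route were measured: genes of heparan sulphate proteoglycans, which hold Fgf ligands at their receptors, and genes of the chain from receptor to ERK. Of 13 heparan sulphate genes, 5 were called in the anterior comparison, beside 23.6% of all genes: 3 fell in the mutant anterior pieces (the core protein genes Gpc1, from 228 ± 1.4 to 151 ± 14 TPM, and Sdc1, from 179 ± 6.7 to 110 ± 12, and the sulphatase gene Sulf2, from 168 ± 8 to 98.5 ± 5.9) and 2 rose, with a median of -0.09 against 0.02 over all genes. The 2 were the core protein gene Gpc4, from 47.6 ± 1.8 to 88.0 ± 7 TPM (0.87 ± 0.096, adjusted p = 0.0006), and the sulphotransferase gene Hs6st1, from 53.7 ± 2.3 to 80.6 ± 8.8 TPM. In the posterior pieces, where 11.5% of all genes were called, 1 of the 13 passed, Gpc4, from 32.1 ± 1.1 to 45.0 ± 1.1 TPM (adjusted p = 0.017). Its posterior call was kept under 16 of 20 other settings, and in the anterior pieces Gpc1, Gpc4, Sdc1 and Sulf2 kept theirs under all 20 and Hs6st1 under 19.

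Of 19 genes from receptor adaptors to ERK, 4 passed in the anterior comparison, a share close to the 23.6% of all genes called there. In the posterior comparison, which called 11.5% of all genes, 0 of 19 passed by limma (1 had an unadjusted p under 0.05), nor did any with voom on recovered reads. In the anterior pieces the adaptor gene Frs3 rose from 3.05 ± 0.17 to 6.73 ± 1.5 TPM (adjusted p = 0.013) and Map2k1, a kinase of ERK, from 155 ± 9.9 to 195 ± 1.8 TPM (adjusted p = 0.025). Hras fell from 107 ± 2.2 to 74.9 ± 6.7 TPM (adjusted p = 0.021) and Map2k2, the other kinase of ERK, from 152 ± 4.7 to 117 ± 11 TPM (adjusted p = 0.026). Each of the 4 calls was lost under 4 or 5 of 20 other settings.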
